A study of Mus musculus with 12 samples.

Results

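A group of 10 genes that mark the choroid plexus, with Kl among them, was followed through RNA-seq of astrocytes isolated from the midbrain of Cd38 mutant mice. The genes were Ttr, Enpp2, Kl, Kcnj13, Slc4a5, Prlr, Folr1, Otx2, Tmem72 and Calml4, and they were taken by gene symbol from a table of 20614 genes, in which all 10 were found. They were chosen by their TPM in these libraries, since their levels had been seen to move together, so their own levels, genotype contrasts and correlations are given here as a description and support no test. The 12 libraries were split by genotype into 3 Cd38+/+, 3 Cd38+/- and 6 Cd38-/-, from male mice 12 to 14 months old (mean 13.5 months) and bred on the C57BL/6J strain. The mutant allele is a germline disruption carried by every cell, so it is not limited to astrocytes, and Cd38+/- mice hold 1 mutant and 1 intact copy. Striatum, thalamus and substantia nigra, together called midbrain, were dissociated with papain, endothelial cells, myelin and CD11b-positive cells were removed, and astrocytes were taken with beads for ACSA-2, an epitope of the protein encoded by Atp1b2. The labels give no treatment.

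The choroid plexus is a vascular tissue that hangs into the brain ventricles. Its epithelium secretes cerebrospinal fluid by moving sodium, bicarbonate, chloride and potassium across the cell layer, and it releases carrier proteins, of which transthyretin is the best known, into that fluid. Klotho is made at high levels by this epithelium and by the kidney, and it serves as a co-receptor for FGF23 at the cell membrane and is also shed. The ventricle walls next to the plexus are lined by ependymal cells, which bear beating cilia and share some genes with the plexus.

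Levels are given as TPM, transcript abundance per transcript length scaled so that every library has the same sum. TPM does not keep read depth, so a gene listed at 0 sets no upper limit. Detection was lower in the wildtype libraries, which listed 13160 to 13516 genes above 0 against 15920 to 17906 in the mutants. Cd38 itself was at 148.6, 120.0 and 104.9 TPM in Cd38+/+, at 90.8, 90.7 and 90.4 in Cd38+/-, and between 8.54 and 21.9 in Cd38-/- (median 15.7), so no library went against its label. Atp1b2, the antigen of the isolation beads, stood at 1630 ± 447.5 TPM (SD, n = 3) in Cd38+/+, 2174 ± 194.4 (n = 3) in Cd38+/- and 1333 ± 359.3 (n = 6) in Cd38-/-. Astrocyte transcripts were abundant in every library, with Aldoc between 3549 and 5835 TPM, Slc1a3 between 1964 and 3431 and Gja1 between 1820 and 3396.

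For orientation on the genes that moved together, the 250 bases before an annotated start of Kl, Kcnj13 and Prlr are shown. Otx2 is added as a gene that did not follow them closely. Prlr has several listed starts, of which the outermost is shown. The sequences are RefSeq's, on GRCm38.p6, written 5′ to 3′ on the strand of the gene at chr5:150952357-150952606 (+), chr1:87394730-87394979 (-), chr15:10176988-10177237 (+) and chr14:48667645-48667894 (-, the outermost of 4 listed Otx2 starts). Capitals mark TATAAA and CCAAT, searched on both strands, so that TTTATA and ATTGG are marked as well.
Kl: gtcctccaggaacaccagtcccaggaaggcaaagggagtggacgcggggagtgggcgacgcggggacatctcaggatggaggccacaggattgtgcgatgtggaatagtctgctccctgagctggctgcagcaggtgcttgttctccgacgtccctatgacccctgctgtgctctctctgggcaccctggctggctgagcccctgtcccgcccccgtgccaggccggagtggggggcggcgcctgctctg
Kcnj13: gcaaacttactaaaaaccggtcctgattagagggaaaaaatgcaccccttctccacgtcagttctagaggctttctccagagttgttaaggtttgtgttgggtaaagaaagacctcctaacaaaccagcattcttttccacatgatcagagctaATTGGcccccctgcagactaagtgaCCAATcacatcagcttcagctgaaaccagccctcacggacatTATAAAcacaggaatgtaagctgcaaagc
Prlr: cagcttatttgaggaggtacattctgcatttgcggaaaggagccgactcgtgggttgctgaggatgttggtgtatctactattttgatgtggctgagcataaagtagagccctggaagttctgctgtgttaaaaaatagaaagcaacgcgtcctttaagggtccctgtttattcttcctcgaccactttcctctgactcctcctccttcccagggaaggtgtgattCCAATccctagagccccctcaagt
Otx2: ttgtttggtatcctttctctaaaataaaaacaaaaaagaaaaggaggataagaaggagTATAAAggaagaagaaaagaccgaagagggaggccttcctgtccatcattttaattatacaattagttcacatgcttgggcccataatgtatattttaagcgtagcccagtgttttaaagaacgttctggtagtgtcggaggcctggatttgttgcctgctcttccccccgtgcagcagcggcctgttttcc
The Kcnj13 window held TATAAA at 29 bases before the start and the CCAAT motif at 71 and 96 bases, the Prlr window held CCAAT at 24 bases, and the Otx2 window held TATAAA at 192 bases. The Kl window held neither and was rich in G and C, at 66.8% against a median of 52.4% over 32851 promoter windows, with 13 CpG pairs against a median of 6. TATAAA was present in 12.4% and CCAAT in 33.8% of all windows of this length. TAATCC, a core sequence bound by OTX proteins, was found on either strand in 6.25% of windows but in none of those printed. Among the windows not printed, that of another Otx2 start (chr14:48665110-48665359) held it at 211 bases before the start. The other listed Prlr windows held none of these motifs. Promoter entries were matched for 7 of the 10 genes, and a match of letters is a description and not a binding site.

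Transthyretin, encoded by Ttr on chromosome 18 (GRCm38, 20665280 to 20674321, plus strand), carries thyroxine and, with retinol-binding protein, vitamin A. Ttr was at 222.9 TPM in Cd38+/+ replicate 1 and was listed at 0 in Cd38+/+ replicates 2 and 3. In Cd38+/- it was at 6537, 356.2 and 60.4 TPM, and in Cd38-/- it ran from 99.6 to 1642 with a median of 348.4. Cd38+/- replicate 1 therefore held 3.98 times the Ttr of the next mutant library, while Cd38+/- replicate 3 fell below every Cd38-/- library. As a description, 2687 genes were at or above 60.4 TPM, the lowest mutant level of Ttr, in each of the 9 mutant libraries, and Ttr was the 1 gene among them listed at 0 in 2 or more Cd38+/+ libraries. Ttr was chosen by these values, so this count adds no support.

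Enpp2 encodes autotaxin, a secreted enzyme that makes lysophosphatidic acid, and lies on chromosome 15 (54838901 to 54952892, minus strand). Its levels were 133.5, 29.3 and 89.3 TPM in Cd38+/+, and 2819, 172.4 and 83.2 in Cd38+/-. In Cd38-/- they ran from 76.3 to 593.7 TPM with a median of 162.1. The Cd38-/- range overlapped the ranges of both other genotypes, and Cd38+/- replicate 1 was 4.75 times the highest of the other 8 mutant libraries. Oligodendrocytes also make autotaxin, and the summed level of 8 of their genes was 3093 TPM in Cd38+/- replicate 1 and between 3176 and 17814 in the other mutant libraries. Their part in the level of Enpp2 was not tested.

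Kl, on chromosome 5 (150952607 to 150993817, plus strand, 5 exons), was listed at 0 in all 3 Cd38+/+ libraries, so no fold change is given against them. It was at 136.3, 3.03 and 0.68 TPM in Cd38+/-. In Cd38-/- it was at 3.08, 27.0, 1.65, 0.52, 9.39 and 0.73 TPM in replicates 1 to 6, with a median of 2.37. All 9 mutant libraries thus lay above the Cd38+/+ libraries, and among themselves they spanned 262-fold. Cd38+/- replicate 1 was 58.3 times the median of the other 8. A value of 0 was common at such levels, since of 2848 genes with a mutant median from 2 to 10 TPM between 11.6% and 19.8% were listed at 0 in a given Cd38+/+ library.

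The channel and the transporter of the group have roles in moving ions into the fluid. Kcnj13 encodes the inward rectifier potassium channel Kir7.1 of the apical membrane (chromosome 1, 87386363 to 87394729, minus strand). It was at 5.05 TPM in Cd38+/+ replicate 1 and listed at 0 in replicates 2 and 3, and at 254.6, 8.93 and 9.63 TPM in Cd38+/-. In Cd38-/- it ran from 5.59 to 69.6 TPM with a median of 18.4, so both mutant genotypes lay wholly above Cd38+/+. Kcnj13 sits inside Gigyf2, which is read from the opposite strand and shares 49.1% of the exonic bases of Kcnj13, and it is not stated that reads were counted by strand. Gigyf2 was at 23.1, 33.2 and 21.3 TPM in the Cd38+/+ libraries and between 20.7 and 42.9 in the mutant libraries, a narrower range than that of Kcnj13. Its highest mutant levels were 42.9 TPM in Cd38+/- replicate 1, 33.7 in Cd38-/- replicate 2, 32.3 in replicate 5 and 31.4 in replicate 1. What part its reads had in the level of Kcnj13 was not tested.

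Slc4a5 encodes a sodium bicarbonate cotransporter of the same membrane (chromosome 6, 83219828 to 83304945, plus strand). It was at 0.01 TPM in Cd38+/+ replicate 1 and listed at 0 in the other two, at 22.8, 1.2 and 0.43 in Cd38+/-, and between 0.17 and 2.84 in Cd38-/- with a median of 1.70. Cd38+/- replicate 1 stood at 8.02 times the next mutant library, the widest gap among the 10 genes. Tmem72, a transmembrane protein gene on the same chromosome (116679063 to 116716913, minus strand), was listed at 0 in Cd38+/+ replicate 1 and at 0.05 and 0.01 TPM in replicates 2 and 3. It was at 16.9, 0.39 and 0.29 TPM in Cd38+/-, and in Cd38-/- it reached 5.50 and 2.14 in replicates 2 and 5 with no other replicate above 0.32. Both genes were thus low outside Cd38+/- replicate 1.

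Prlr and Folr1 encode receptors. The prolactin receptor carries the hormone's signal to JAK2 and STAT5 and takes prolactin up at the plexus (chromosome 15, 10177238 to 10349180, plus strand). Prlr was at 3.00 and 2.78 TPM in Cd38+/+ replicates 1 and 3 and listed at 0 in replicate 2, at 83.8, 3.38 and 2.37 in Cd38+/-, and between 0.77 and 10.9 in Cd38-/- with a median of 1.71. Apart from Cd38+/- replicate 1 and Cd38-/- replicates 2 and 5, no mutant library exceeded 3.38 TPM, so that most of them lay near the Cd38+/+ values.

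Folate receptor alpha, encoded by Folr1 (chromosome 7, 101858331 to 101870788, minus strand), moves folate from blood into the fluid. Folr1 was present in every library, at 60.9, 34.7 and 57.2 TPM in Cd38+/+, at 231.5, 68.4 and 69.6 in Cd38+/-, and between 69.9 and 138.4 in Cd38-/- with a median of 115.4. Every mutant library lay above every Cd38+/+ library. The mean was 50.9 ± 14.1 TPM (SD, n = 3) in Cd38+/+, 123.2 ± 93.8 (n = 3) in Cd38+/- and 112.7 ± 23.9 (n = 6) in Cd38-/-. Cd38+/- replicate 1 was again the highest, but by 1.67 times only.

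Calml4 did not follow the others, and Otx2 did so only loosely and over a small range. Otx2, a homeobox transcription factor needed to form and keep the choroid plexus (chromosome 14, 48657677 to 48673819, minus strand), was at 19.5, 87.2 and 55.0 TPM in Cd38+/+, at 87.2, 56.1 and 60.8 in Cd38+/-, and between 60.0 and 88.3 in Cd38-/-. The highest and lowest of the 9 mutant libraries differed by 1.57-fold, against 108-fold for Ttr and 339-fold for Tmem72. Calml4, which encodes a calmodulin-like protein (chromosome 9, 62858080 to 62875921, plus strand), was at 93.3, 199.6 and 221.0 TPM in Cd38+/+, at 177.6, 138.5 and 139.6 in Cd38+/-, and between 189.5 and 264.8 in Cd38-/-. Its Cd38-/- libraries all lay above its Cd38+/- libraries, with means of 233.5 ± 26.5 TPM (SD, n = 6) and 151.9 ± 22.3 (n = 3).

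**Figure D1:**
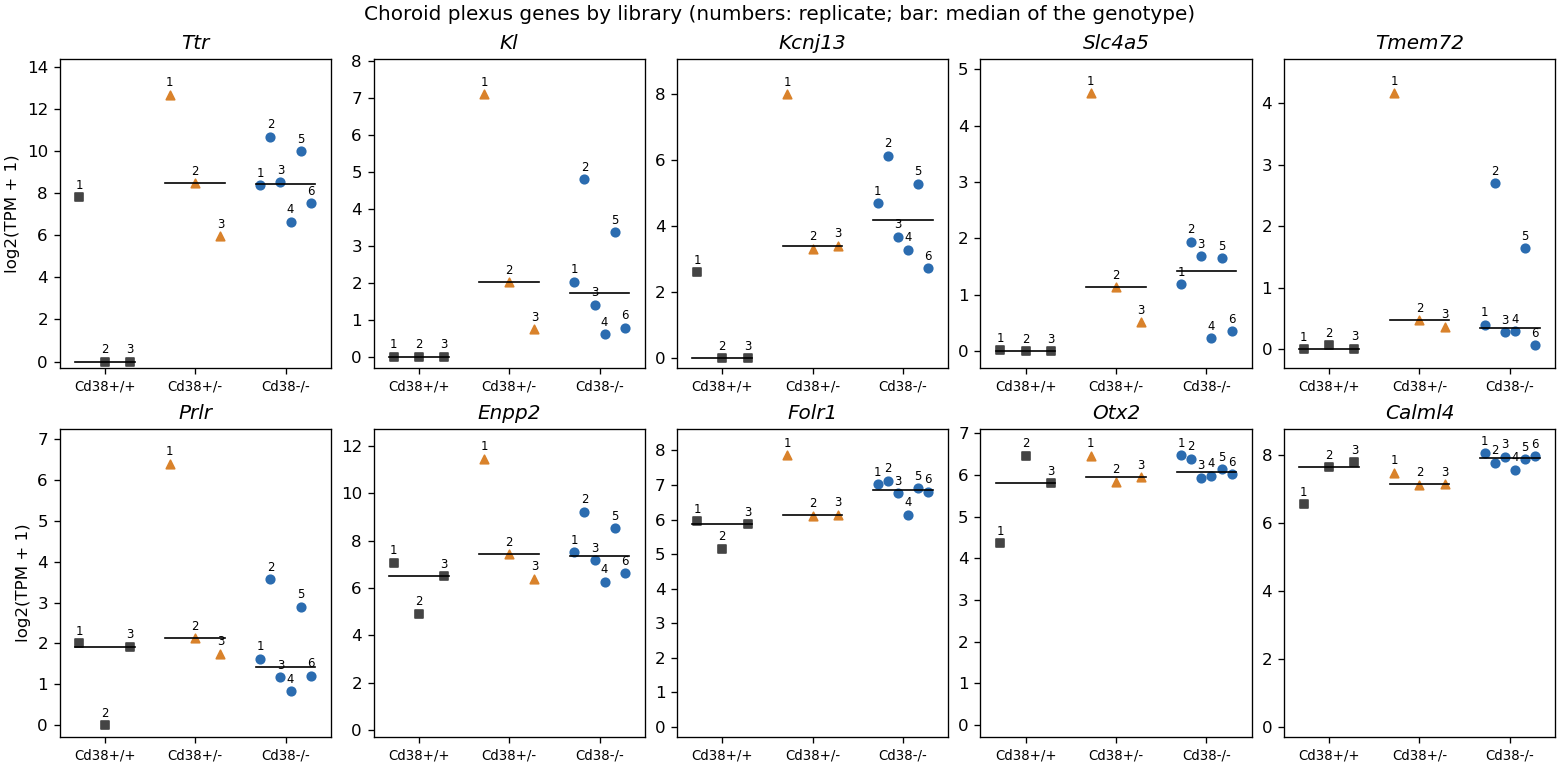
Level of each of the 10 choroid plexus genes by library, as log2(TPM + 1) on the vertical axis and genotype on the horizontal axis, with 3 Cd38+/+, 3 Cd38+/- and 6 Cd38-/- libraries. Points are libraries numbered by replicate and bars are medians; Cd38+/- replicate 1 is the top point in 8 panels and Cd38-/- replicates 2 and 5 rise above the other Cd38-/- points in 6 of them, while Otx2 and Calml4 are nearly level among the mutants.

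Over the 9 mutant libraries, 8 of the 10 genes were highest in Cd38+/- replicate 1, and in 7 (all but Folr1, Otx2 and Calml4) that library held at least 3 times the level of any other. Cd38-/- replicate 2 came next for all 7, followed by replicate 5 for 6 of them, and Slc4a5 had Cd38-/- replicate 3 in that place. Among 13628 genes with a mean above 1 TPM in these libraries, 23.8% were highest in Cd38+/- replicate 1, 0.271% (37 genes) reached 3 times the others there, and 0.741% (101 genes) had the same order of their first 3 libraries. The threshold of 3 and this order were chosen after the values were seen. Summed over the 10 genes, Cd38+/- replicate 1 held 10367 TPM, or 1.04% of the library, Cd38-/- replicate 2 held 2791 TPM and Cd38-/- replicate 5 held 1864 TPM, and the other mutant libraries held between 426.9 and 1028 TPM. The Cd38+/+ libraries held 538.2, 350.9 and 425.3 TPM, a range that met the lowest mutant libraries. In bulk samples, fewer cells of a type and less RNA per cell cannot be told apart.

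The order cut across genotype. Kl was at 3.03 TPM in Cd38+/- replicate 2 and at 3.08 in Cd38-/- replicate 1, and at 0.68 in Cd38+/- replicate 3 and at 0.73 in Cd38-/- replicate 6. Enpp2 followed the same ranks exactly, with 172.4, 181.9, 83.2 and 97.1 TPM in these libraries. The spread within a genotype therefore exceeded the distance between the mutant genotypes for both genes.

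Pearson's r of log2(TPM + 1) over the 9 mutant libraries had a median of 0.861 over the 45 pairs of the 10 genes, from -0.178 (Calml4 and Prlr) to 0.995 (Kl and Enpp2). Spearman's rho had a median of 0.717, and it was 1.0 for Kl and Enpp2. The libraries share a table scaled to a fixed sum and a few of them hold most of the range, so these values describe the libraries and carry no p. Without Cd38+/- replicate 1 and Cd38-/- replicate 2, the libraries farthest from the median of the summed level, the median r over all pairs was 0.634.

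Among the 7 genes that rose in Cd38+/- replicate 1, the 21 pairs had r from 0.892 to 0.995 (median 0.962). Without that library the median was 0.905, within the 6 Cd38-/- libraries it was 0.934, and without the 2 farthest libraries it was 0.831. Kl was tied to Enpp2 by an r of 0.991 without Cd38+/- replicate 1 and of 0.993 without the 2 farthest libraries. Kl and Tmem72 had an r of 0.981, Kl and Kcnj13 of 0.971, Kl and Prlr of 0.969, Kl and Ttr of 0.962 and Kl and Slc4a5 of 0.933. Single pairs were looser, with r down to 0.565 without the 2 farthest libraries and rho down to 0.571 without Cd38+/- replicate 1.

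The other members were tied more loosely. Folr1 had r from 0.779 to 0.866 with the 7 genes, and its median fell to 0.516 without the 2 farthest libraries. Otx2 had r from 0.611 to 0.809, with a median of 0.279 without those libraries. Calml4 had r from -0.178 to 0.171.

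**Figure D2:**
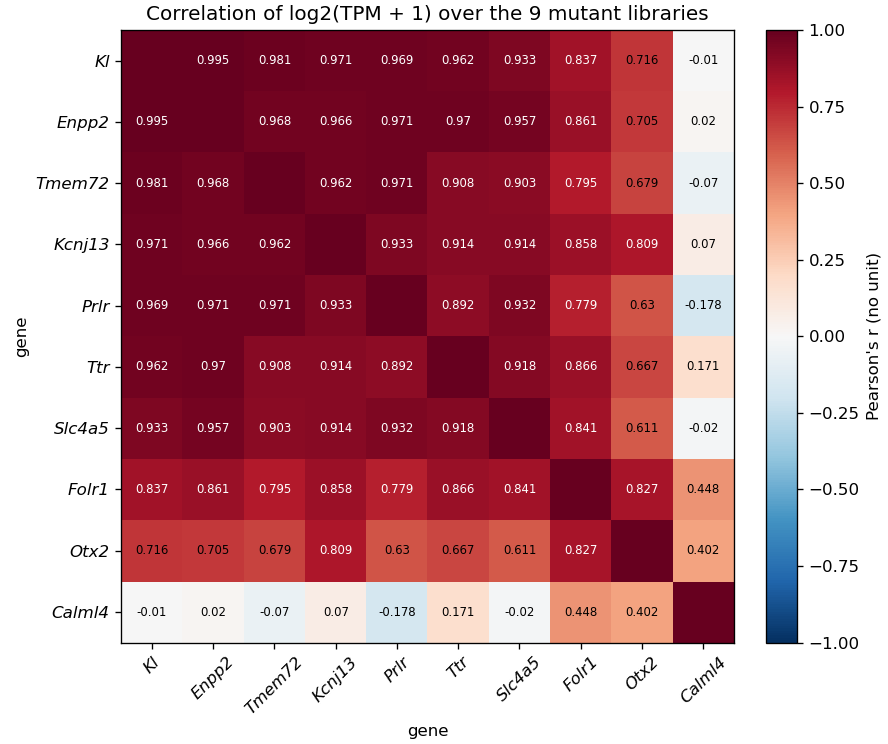
Pearson's r of log2(TPM + 1) between each pair of the 10 genes over 9 mutant libraries (3 Cd38+/- and 6 Cd38-/-), with both axes listing genes and colour giving r from -1 to 1. A block of 7 genes from Kl to Slc4a5 holds r of 0.892 or more, Folr1 and Otx2 are paler, and Calml4 has r near 0 with the 7 genes.

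**Figure D3:**
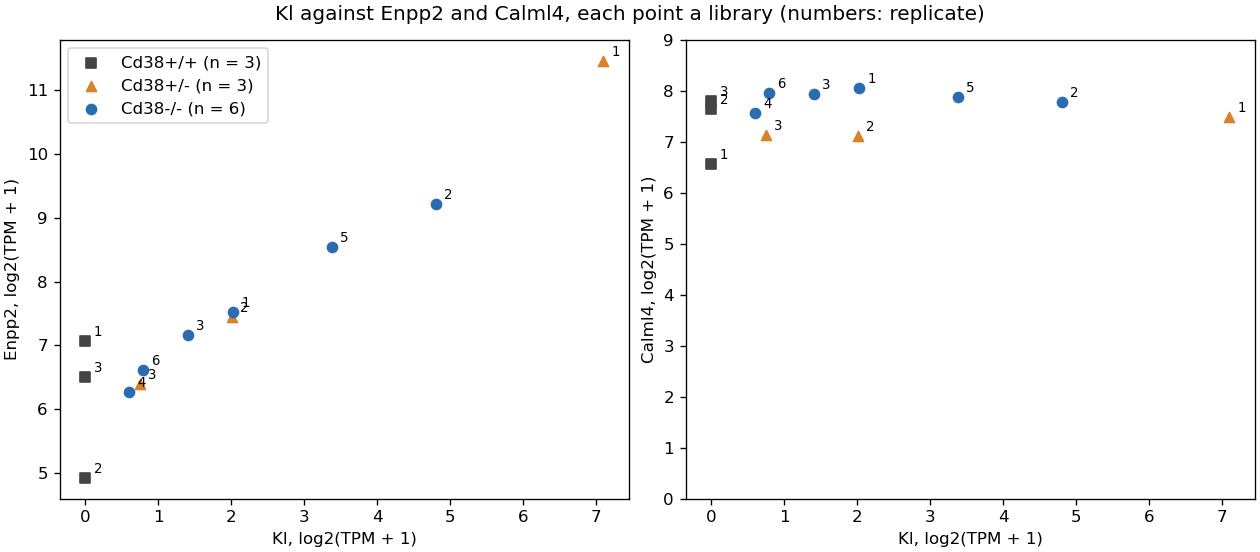
Kl on the horizontal axis against Enpp2 (left) and Calml4 (right), all as log2(TPM + 1), with each point a library numbered by replicate. The 9 mutant libraries of both genotypes fall along one rising line for Enpp2 (r = 0.995) and along a level band for Calml4 (r = -0.00608), and the 3 Cd38+/+ libraries sit at 0 for Kl.

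Relative to Ttr, the other genes kept their proportions to different degrees. Enpp2 stood at 362 to 1380 TPM for each 1000 TPM of Ttr over the mutant libraries, a 3.81-fold range, and Kl at 4.01 to 20.9, a 5.20-fold range. Slc4a5 had a 4.63-fold and Kcnj13 a 6.36-fold range, and Prlr and Tmem72 had ranges of 11.4-fold and 17.5-fold at low TPM. The ratio ranged over 32.5-fold for Folr1, 75.4-fold for Otx2 and 85.0-fold for Calml4. Ttr itself spanned 108-fold, close to the ranges of its ratios to Otx2 and Calml4, which changed little.

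A list of 30 other choroid plexus genes was read for the same pattern, and 29 of them had a mean above 1 TPM in the mutant libraries. Of these, 24 were highest in Cd38+/- replicate 1, 10 reached 3 times every other mutant library there, and 11 had Cd38+/- replicate 1 first, then Cd38-/- replicates 2 and 5. These shares stand beside 23.8%, 0.271% and 0.741% over all genes. The list was chosen with earlier results of these data known, so the counts are a description. The filter took in Cd38+/- replicate 1 itself, and Wdr86 and Slc28a3 passed it only through that library. Car12, a carbonic anhydrase of the cell surface, was at 60.5 TPM in Cd38+/- replicate 1, 13.4 in Cd38-/- replicate 2 and 6.03 in Cd38-/- replicate 5, with no other library above 3.28. Sostdc1, a secreted BMP and WNT antagonist, was at 122.9, 26.3 and 13.9 TPM in these libraries, and Kcne2, a potassium channel subunit, at 65.5, 11.9 and 7.97 TPM. The most abundant genes of the list moved less: Igfbp2 was at 441.1 TPM in Cd38+/- replicate 1 and between 165.9 and 290.2 in the other mutants, Rdh5 at 320.9 against 176.2 to 270.4, and Lbp at 192.1 against 91.0 to 238.5. Aqp1, the water channel of the apical membrane, was an exception in its order, at 17.3 TPM in Cd38+/- replicate 1 and 34.1 in Cd38-/- replicate 2, with no other library above 1.41.

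The 15 genes outside the group whose levels lay closest to the mean pattern of the 10, by Pearson's r over the 9 mutant libraries among 13618 genes, had r from 0.964 to 0.990. The list of other choroid plexus genes held 9 of them, namely Car12 (0.990), F5 (0.980), Kcne2 (0.979), Sostdc1 (0.978), Ace (0.977), Cldn2 (0.969), Slc16a8 (0.965), Cab39l (0.964) and Htr2c (0.964). The remaining 6 were Frmpd4 (0.980), Vldlr (0.979), Col18a1 (0.968), Cldn1 (0.968), Bag4 (0.966) and Mrvi1 (0.964). The median r over all genes was 0.363, and 89 of the 13618 had r above 0.9. Of the other choroid plexus genes 29 were compared, and 12 of these had r above 0.9. Frmpd4 passed the filter of a mean above 1 TPM only through Cd38+/- replicate 1. Several of the 6 changed little in size, as Bag4, which was at 20.0 TPM in Cd38+/- replicate 1 and between 9.68 and 14.7 in the other mutants.

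Markers of other cell types in Cd38+/- replicate 1 were compared in the same way. None of 10 ependymal, 11 astrocyte, 7 oligodendrocyte, 6 microglial or 7 neuronal genes with a mean above 1 TPM was highest in that library, and none of the genes on the endothelial and mural lists reached 3 times the others. Of 6 endothelial genes 2 were highest there, and of 9 mural cell and fibroblast genes 6 were, beside 23.8% of all genes. Dcn was at 108.8 TPM there against 23.6 to 49.5 in the other mutants. Of the 9 mural cell and fibroblast genes 2, Col1a2 and Lum, had Cd38+/- replicate 1 first, then Cd38-/- replicates 2 and 5. This order was met by 0.741% of all genes and by none on the other lists of this paragraph. The 9 genes had a median r of 0.512 with Kl over the mutant libraries, beside 0.331 over all genes, and Col1a2 had 0.976. The summed level of the ependymal genes was 3484 TPM in Cd38+/- replicate 1, above 2866 and 3158 in the other Cd38+/- libraries and under all Cd38-/- libraries, which ran from 3767 to 5765, with no gene of the list at 0 in any library. Summed oligodendrocyte genes held 3093 TPM there, the lowest of the mutant libraries, whose highest was 17814 TPM. The summed astrocyte genes held 16889 TPM in that library, within the range of the other mutant libraries (12947 to 19045 TPM). What part the content of choroid plexus cells had in the levels of the 10 genes was not tested.

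**Figure D4:**
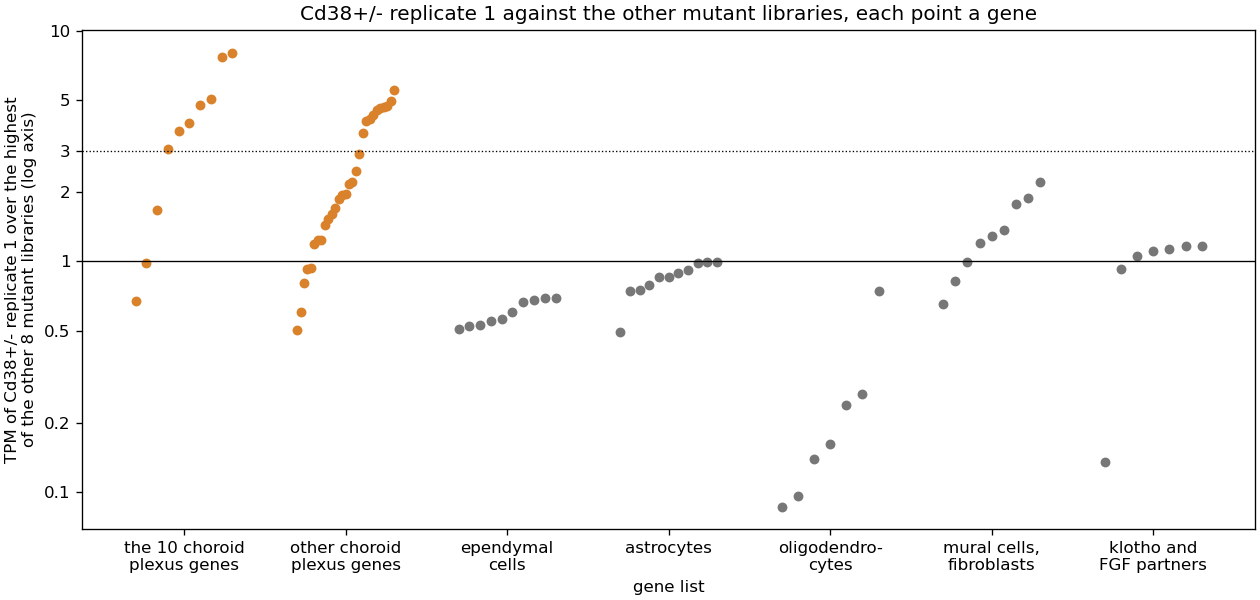
TPM of Cd38+/- replicate 1 divided by the highest of the other 8 mutant libraries, on a log axis, with each point a gene of the list named on the horizontal axis and a mean above 1 TPM. The line marks 1 and the dotted line 3. Of the 10 genes 7, and of 29 other choroid plexus genes 10, lie above 3, and no gene of the 5 grey lists does. Among the lists not drawn, that for ion transport into the fluid held 1 gene above 3, Slc4a10 (4.42).

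Calml4 ran with the ependymal genes. Folr1 did so outside Cd38+/- replicate 1, and it also ran with the other choroid plexus genes. Calml4 had an r of 0.957 (rho 0.933) with the summed level of the 10 ependymal genes over the 9 mutant libraries, 0.960 without Cd38+/- replicate 1 and 0.855 within Cd38-/-. For Folr1 the r was 0.377 over the 9 libraries, 0.881 without Cd38+/- replicate 1 and 0.740 within Cd38-/-. With the summed level of the other choroid plexus genes, Folr1 had an r of 0.921, 0.879 and 0.753 in the same order. Kl had an r of -0.0683 with the ependymal sum over the 9 libraries. The ependymal sums were also higher in Cd38-/- than in Cd38+/-, without overlap, as Calml4 was.

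**Figure D5:**
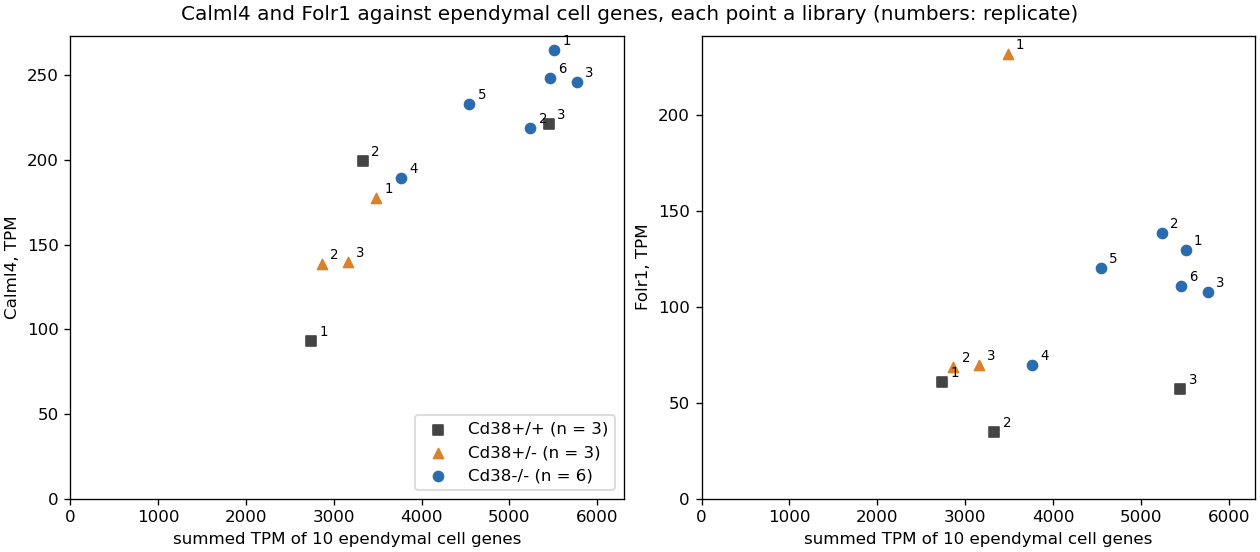
Calml4 (left) and Folr1 (right), in TPM, against the summed TPM of 10 ependymal cell genes, with each point one of 12 libraries numbered by replicate and coloured by genotype. Calml4 rises with the ependymal sum from 93.3 to 264.8 TPM, and Folr1 does so among the mutant libraries other than Cd38+/- replicate 1, which sits apart at 231.5 TPM.

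The genotypes were compared gene by gene with limma on log2(TPM + 1), over genes with a mean above 5 TPM in a compared genotype, and a gene was called with a Storey q under 0.05 and a change of at least 1.2-fold. A fold on this scale understates the change of low genes. Against Cd38+/+, 0 of the 10 genes were called in Cd38+/-, where 0.0% of 11763 genes were called and 1586 had an unadjusted p under 0.05 (3 of the 10 among them). All 10 passed the filter on low values, but without Cd38+/- replicate 1 only 6 did, since Kl, Slc4a5, Tmem72 and Prlr reached it through that library alone. Kl, Kcnj13, Slc4a5, Tmem72 and Folr1 were higher without overlap between these genotypes, beside 15.5% of all tested genes. The log2 difference of Enpp2 was 2.27 (SE 1.13) and that of Folr1 1.05 (SE 0.46), and without Cd38+/- replicate 1 they were 0.75 and 0.47. Ttr differed by 6.43 (SE 2.20) and Kcnj13 by 4.04 (SE 1.28), values that depend on the pseudocount since 2 of the 3 Cd38+/+ libraries were listed at 0.

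In Cd38-/- against Cd38+/+, 7 of the 10 genes passed the filter and 3 were called, all higher: Ttr, Kcnj13 and Folr1. Kl and Kcnj13 passed it through Cd38-/- alone. Kl did so only with Cd38-/- replicate 2, without which 6 of the 10 passed. Over all genes 8.28% of 11722 were called, 6.42% higher and 1.86% lower. Median-ratio scaling split the calls into 553 higher and 381 lower, in place of 752 and 218, and moved the median log2 difference over all genes from 0.15 to 0.03 (from 0.18 to 0.04 in Cd38+/-). It called 3 of the 10 genes as well. The log2 difference was 6.02 (SE 1.47) for Ttr, 3.44 (SE 0.78) for Kcnj13 and 1.14 (SE 0.23) for Folr1. The calls were not stable to single libraries, and 0 of the 10 genes were called without Cd38-/- replicate 1, 2 or 5, where the calls over all genes fell to 112, 74 and 93. Enpp2 differed by 1.39 (SE 0.62), Otx2 by 0.61 (SE 0.35) and Calml4 by 0.53 (SE 0.23), and none of these was called. Kl, Kcnj13 and Folr1, and Slc4a5 below the filter, had no overlap between Cd38-/- and Cd38+/+, beside 8.21% of all tested genes that lay higher without overlap.

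Between the mutant genotypes, 10 genes passed the filter and 0 were called, beside 0.0346% (4 genes) of 11563, with 1299 genes, 1 of the 10 among them, at an unadjusted p under 0.05. The direction for Ttr, Kl, Kcnj13 and Enpp2 depended on 1 library. With all libraries the log2 difference of Cd38-/- against Cd38+/- was -0.41 (SE 1.23) for Ttr, -1.12 (SE 1.26) for Kl, -0.60 (SE 1.00) for Kcnj13 and -0.88 (SE 0.95) for Enpp2. Without Cd38+/- replicate 1 these became 1.41, 0.79, 0.94 and 0.64. Slc4a5 differed by -0.90 (SE 0.76), Tmem72 by -0.77 (SE 0.84) and Prlr by -1.54 (SE 0.93), and without that library these 3 no longer passed the filter. Folr1 differed by 0.09 (SE 0.34) and Otx2 by 0.07 (SE 0.17). Calml4 differed by 0.62 (SE 0.12), the 1 gene of the group whose mutant genotypes did not overlap, beside 2.85% of tested genes that lay higher in Cd38-/- without overlap. The comparisons with Cd38+/+ share their control libraries and were not set against each other.

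The list of other choroid plexus genes gave 0 calls of 26 tested in Cd38+/- against Cd38+/+ and 0 of 26 between the mutants. In Cd38-/- against Cd38+/+, 4 of 21 tested were called, all higher, beside 6.42% of all tested genes called higher, and the median log2 difference of the 21 was 0.91 against 0.15 over all genes. Slc29a4, a monoamine transporter, differed by 2.69 (SE 0.56, q = 0.0192), and Cldn2, a tight junction protein that lets cations and water pass, by 2.21 (SE 0.48, q = 0.0207). Clic6 differed by 1.37 (SE 0.33, q = 0.0280) and Krt18, a keratin of simple epithelia, by 1.02 (SE 0.25, q = 0.0294). Of the genes tested, Slc29a4, Cldn2, Aqp1, F5, Cox8b and Ace passed the filter on low values through Cd38-/- alone. Such genes had to have the higher mean there, so the count of calls and the median difference are a description. Leaving out Cd38-/- replicate 1, 2 or 5 ended all 4 calls, and leaving out replicate 6 left Slc29a4. Library quality weights and the replicate block, which left 1 and 2 calls over all genes, each ended them too.

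Genes of the pathways in which the 10 take part gave few calls. Over all tested genes 0.0% were called in Cd38+/- and 8.28% in Cd38-/- against Cd38+/+, and 0.0346% between the mutants. At these shares short lists give few calls. Of the partners of klotho and FGF signalling, 0 of 6 tested were called in each of the 3 comparisons. The receptors Fgfr3, Fgfr2 and Fgfr1 were at means of 770.5, 116.7 and 95.3 TPM over the 12 libraries. Fgf23, the ligand of klotho, was listed at 0 in all 12 libraries. In the list for lysophosphatidic acid, the product of autotaxin, 2 of 7 tested genes were called higher in Cd38-/- than in Cd38+/+, the receptor genes Lpar3 (log2 difference 2.69, SE 0.66, q = 0.0291) and Lpar1 (0.99, SE 0.29, q = 0.0436), beside 6.42% of all tested genes. Both calls were lost with library quality weights, with the replicate block and without Cd38-/- replicate 1, 2, 5 or 6, and that of Lpar1 also without replicate 3, without Cd38+/+ replicate 2 and with median-ratio scaling. Plpp3, which breaks the lipid down, was the most abundant at 2029 TPM.

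The lists for thyroid hormone and retinol carriage (8 tested), folate uptake (4), prolactin signalling (5) and ion transport into the fluid (9) gave 0 calls in each comparison. Beside them stand 0.0% of all tested genes for Cd38+/- and 8.28% for Cd38-/- against Cd38+/+, and 0.0346% between the mutants. The most abundant genes of these lists were Slco1c1, a thyroxine transporter, at a mean of 165.8 TPM, Mthfd1 at 120.6, the growth hormone receptor gene Ghr at 46.3 and Car2 at 271.4. Slc4a10, a sodium-coupled bicarbonate transporter of the plexus named here after its values were seen, was at 47.8 TPM in Cd38+/- replicate 1 and at no more than 10.8 in the other mutants. Among the cell type lists, Cd38-/- against Cd38+/+ called Gfap (1.00, SE 0.20, q = 0.0175) and Aqp4 (0.71, SE 0.15, q = 0.0200) of 11 astrocyte genes and P2ry12 (1.98, SE 0.61, q = 0.0479) of 3 microglial genes, all higher, and 0 of the ependymal, oligodendrocyte, endothelial, mural and neuronal genes, beside 6.42% of all tested genes called higher. Neither the replicate block nor weights for library quality left any of these 3 calls, in fits that left 2 and 1 calls over all genes. Leaving out any 1 Cd38-/- library ended that of P2ry12, as did leaving out Cd38+/+ replicate 1 or 2, median-ratio scaling and a pseudocount of 5. Leaving out replicate 1 or 5 ended that of Aqp4, and leaving out replicate 2 ended that of Gfap. P2ry12 was listed at 0 in Cd38+/+ replicates 1 and 2 and passed the filter on low values only through Cd38-/-.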

How the data were processed

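Ribosomal RNA was depleted by the authors and cDNA was made with the SMART-Seq v4 kit for paired-end sequencing, while the labels give the molecule as polyA RNA. They trimmed reads with Trim Galore 0.6.4, mapped them to mm10 with STAR 2.7.1a and estimated gene levels with RSEM 1.2.28; DESeq2 1.36.0 is named in the submitters' processing notes without a role, and the annotation is not given in the sources used here. The unit deposited by the authors is TPM, with 2 decimals and 1 column per library. Genotypes came from the sample labels. Nothing in them tells whether a library came from 1 mouse, so p-values measure the spread between these libraries.

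The members and all gene lists were chosen with earlier results of these data known. Log2(TPM + 1) of genes with a mean above 5 TPM in a compared genotype was fitted with limma 3.58.1 in R 4.3.3 (functions lmFit and eBayes, trend on), and Storey q was taken over lambda 0.05 to 0.95. The test behind the authors' q-values is not named, so this model was a choice. On simulated data with 200 changed genes it recovered 77, 144 and 186 of them in the Cd38+/- and Cd38-/- comparisons with Cd38+/+ and in that between the mutants. False calls were 4 of 81, 12 of 156 and 8 of 194 in the same order. The changed genes were abundant ones with independent normal noise, so these rates do not carry over to members near the floor. The genes named are the 10 members, the 15 closest to their mean pattern, Cd38 and Atp1b2. Of each list they are the called genes (up to 6) or else its most abundant (up to 3). Aqp1, Wdr86, Slc28a3, Dcn, Col1a2, Lum, Slc4a10, Fgf23 and Gigyf2 were named after their values were seen. Gene positions were read from GENCODE vM21 (GRCm38). Alternatives were pseudocounts of 0.1 and 5, no filter, median-ratio scaling, all 12 libraries in one fit, library quality weights, the replicate number as a block, and leaving out each library.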

Additional observations from a re-analysis of the deposited data

Results flagged for a closer look

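Within the 6 Cd38-/- libraries, Kl in replicate 2 was at 27.0 TPM, and its gap to the next library (9.39 TPM in replicate 5) was 0.665 of the whole range of the group, which passes Dixon's 95% criterion for 6 samples. Kl was chosen by its levels in these libraries, so this is a description and no test of replicate 2. Chance gives such a gap in about 1 in 20 groups of normally distributed values. The gap was taken on TPM and not on log2(TPM + 1), and Kl was skewed, from 0.52 to 27.0 TPM with a median of 2.37. That rate therefore does not apply here, and 10 genes were examined. The groups of 3 libraries, to which Cd38+/- replicate 1 belongs, are too small for this criterion.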

How the results depend on the processing

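Calls in the comparisons with Cd38+/+ depended on the processing, and the cause was not tested. In Cd38+/- against Cd38+/+ the count of the 10 genes went from 0 to 2 and that of the other choroid plexus genes from 0 to 3 with all 12 libraries in one fit. That fit called 1464 of 11763 genes. In Cd38-/- against Cd38+/+ library quality weights took both counts (3 and 4) to 0, where 1 of 11722 genes was called. Between the mutants these weights took both counts from 0 to 3 and 9, where 3120 of 11563 genes were called. The weights turned the log2 differences to 2.51 for Ttr, 1.24 for Kl, 0.66 for Kcnj13, 0.49 for Slc4a5, 0.46 for Tmem72, 0.0799 for Prlr and 1.03 for Enpp2. Calls over all genes ranged from 0 (as reported) to 1464 in Cd38+/- and from 1 to 2283 in Cd38-/- against Cd38+/+ (970 as reported) and from 1 to 3120 between the mutants (4 as reported), without the leave-one-out fits.

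Same-numbered libraries did not deviate together (correlations from -0.318 to 0.501 over 9 pairs), so the numbers were not taken as pairs. Cd38-/- replicates 4 to 6 have no library of the same number in the other genotypes, so a block by number leaves them out of each contrast. A call lost in that fit therefore cannot be told from the loss of these libraries. With the replicate number as a block, 1 of the 10 genes was called in Cd38+/- (Ttr) and 0 in Cd38-/- against Cd38+/+, 0 other choroid plexus genes were called in the latter, and the difference of Ttr between the mutants became 0.16.

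Leaving out each library in turn gave 0 to 4 calls among the 10 genes and 0 to 10 among the other choroid plexus genes in Cd38-/- against Cd38+/+, 0 to 1 among the 10 between the mutants, and none in the other counts. The highest counts came without Cd38+/+ replicate 3 (for the 10 genes also without replicate 2), and without Cd38+/+ replicate 1 there were 7 calls among the other choroid plexus genes. Calls over all genes rose as well, from 970 of 11722. They were 3119 of 11779 without Cd38+/+ replicate 3, 1931 of 11735 without replicate 2 and 1829 of 11778 without replicate 1. The log2 difference in Cd38+/- against Cd38+/+ ranged from -0.0526 to 1.00 for Otx2 and from -0.47 to 0.14 for Calml4. Between the mutants it ranged from -1.96 to 1.41 for Ttr, -2.39 to 0.79 for Kl, -1.40 to 0.94 for Kcnj13, -1.90 to 0.64 for Enpp2, -0.0511 to 0.26 for Otx2 and -0.20 to 0.67 for Folr1. The median correlation of the 10 genes ranged from 0.730 to 0.9002 in this way, was 0.717 by ranks, 0.619 by ranks without Cd38+/- replicate 1 and 0.634 without the 2 farthest libraries, and was between 0.728 and 0.912 with other pseudocounts, with median-ratio scaling, centred on genotype and within Cd38-/-. Of 520 alternative values of single genes, 419 kept direction and call, 75 lost and 8 gained the call, and 18 turned. TPM gives no depth, so levels under about 1 TPM cannot be told from few reads, and 3 Cd38+/+ libraries limit every comparison with them.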

Other observations

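Outside the lists, 19 genes also reached 3 times every other mutant library in Cd38+/- replicate 1, and ratios below are to the next mutant library, not to Cd38+/+. Those named here were chosen after their values were seen. Ltc4s, which makes leukotriene C4, was at 39.7 TPM there (3.80 times) and at no more than 3.71 in Cd38+/+. Chga, a protein of secretory granules, was at 85.1 TPM (4.84 times), and Cga, the common subunit of pituitary glycoprotein hormones, at 25.2 TPM (7.04 times), but both were higher in Cd38+/+ replicate 1, at 172.4 and 41.8 TPM. Lepr, the leptin receptor gene, was at 10.4 TPM (3.51 times), and Prr32 at 16.0 TPM (3.23 times). Ccn3 was at 20.3 TPM (7.20 times), beside 9.66 TPM in Cd38+/+ replicate 1.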
